A study of Xenopus laevis with 32 samples.

Results

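Interkinesis oocytes of the frog Xenopus laevis were compared with stage VI oocytes for the share of each mRNA found in polysomes and for its RNA level. Of the 32 libraries in the series, 12 belong to these stages, 6 from interkinesis and 6 from stage VI. Each stage was sampled as 3 sucrose gradient fractions (messenger ribonucleoprotein, monosome and polysome) with 2 libraries per fraction, and poly(A) RNA was sequenced. Interkinesis is the interval between the meiotic divisions of an oocyte that is maturing. Stage VI oocytes are fully grown, and the labels give them no progesterone. No mutation or other agent is named for either stage, the labels do not say how many females gave the oocytes, and the time of collection after progesterone is not given for interkinesis. The values come as 2 columns per stage, called column sets x and y after their suffixes, which are not matched to library numbers. Shares were listed for 6497 genes and levels for 11765 names that occur a single time, and every one of them was examined.

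A stage VI oocyte is held in prophase of the first meiotic division, and progesterone releases it. From germinal vesicle breakdown to fertilisation the oocyte makes almost no new RNA, so its protein output is set by which stored maternal mRNAs are translated. Stored mRNAs with short poly(A) tails can be lengthened in the cytoplasm and then join polysomes, the RNA carrying several ribosomes, while others lose their tails and leave them. At interkinesis the oocyte rebuilds a spindle and enters the second division without replicating its DNA. X. laevis is an allotetraploid, so many genes exist as a long (.L) and a short (.S) homeolog. Reads may be split between near-identical homeologs, which makes the values of both members of such a pair uncertain.

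The depth behind the shares and levels is unknown, since the tables give no read totals. Of 16 oocyte marker genes, 15 were listed among the levels. Of the markers of other ovarian cells, 2 of 9 follicle cell genes (krt18 and krt8), 1 of 8 theca or stroma genes (cyp17a1) and 1 of 11 blood genes (hbz) were listed. The summed level of krt18 and krt8 was 4432 (x) and 416 (y) at interkinesis, against 5401 and 987 at stage VI. The levels do not show whether this RNA came from follicle cells or from the oocytes. The oocyte marker sum was 14734 and 3844 at interkinesis, against 11777 and 5816 at stage VI. Most of it came from h1foo, so it says little about the other markers. h1foo.S alone had 10179 and 2893 at interkinesis, against 7597 and 4228 at stage VI. The part of other ovarian cells in the results was not tested. Nothing states whether x and y came from separate females, so the p-values measure the spread between columns, which may be technical.

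The typical polysome share was lower at interkinesis than at stage VI, while a smaller group of genes stood at higher shares. The median share was 0.266 (x) and 0.295 (y) at interkinesis, against 0.332 and 0.321 at stage VI. Both interkinesis columns lay above both stage VI columns for 805 genes (12.4% of 6497) and below both for 2663 (41%). Changes are given as log2 odds, log2(share / (1 - share)), interkinesis minus stage VI. The median gene changed by -0.43 in x and -0.20 in y, and since the scaling between fractions is not stated, changes below are taken after each column was centred on its median unless called raw. Changes in x and y were related in part, with Pearson's r at 0.443 and Spearman's rho at 0.400 over 6497 genes, which share libraries and are not independent replicates.

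No single gene passed the test of the share change. limma-trend over all 10 columns of the 5 stages called 0 of 6497 genes at a Benjamini-Hochberg adjusted p under 0.05 (percent called 0), with a smallest adjusted p of 0.212. Without adjustment, 1041 genes had a p below 0.05, of which 220 were higher and 821 lower at interkinesis. With centred columns 814 did, of which 537 were higher and 277 lower, so the split of directions turned round with the scaling. Columns of the same suffix deviated together, and with the column set as a block 1702 genes did (365 higher and 1337 lower), again with 0 called and a smallest adjusted p of 0.0812 in limma. Without the y column of interkinesis 3 genes passed, ndufb9.L of respiratory complex I, c7orf55.L and a gene model without a symbol, all lower. For ndufb9.L this rested on a share of 0.0464 in x, while in y it was 0.460 at interkinesis, against 0.480 at stage VI. An exact permutation test of 2 against 2 columns cannot give a p below 0.333. The genes described here were therefore picked for their direction in both column sets and are not called genes.

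After centring, 307 genes (4.73%) were higher by at least 1 log2 odds in both column sets and 34 (0.523%) were lower by as much. A centred change of 1 means that the odds of being in polysomes were 2 times as high relative to the median gene. For genes at higher shares the raw change was smaller. In eif4g2.S it was 0.57 (x) and 0.96 (y), against 1.03 and 1.14 after centring. Without centring the numbers were 148 higher (2.28%) and 133 lower (2.05%), so the balance of directions depends on the scaling. Centring raised every change by a fixed amount per column set, too little to turn a change of this size. That all 307 were also higher in both sets before centring was therefore fixed by the limit. In 294 of them both interkinesis columns lay above both stage VI columns, beside 805 of all 6497 genes (12.4%). The limit made this likely as well, so it is no further support. The spread of the centred change was longer on the upper side: over all genes the mean of x and y ran from -0.78 at the 5th percentile to 1.30 at the 95th. Members close to the limit show how gradual it is. nsun2.S was just inside with shares of 0.549 and 0.424 at interkinesis, against 0.316 and 0.293 at stage VI. znf326.S, at 0.570 and 0.472 at interkinesis against 0.410 and 0.336 at stage VI, was just outside.

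**Figure D1:**
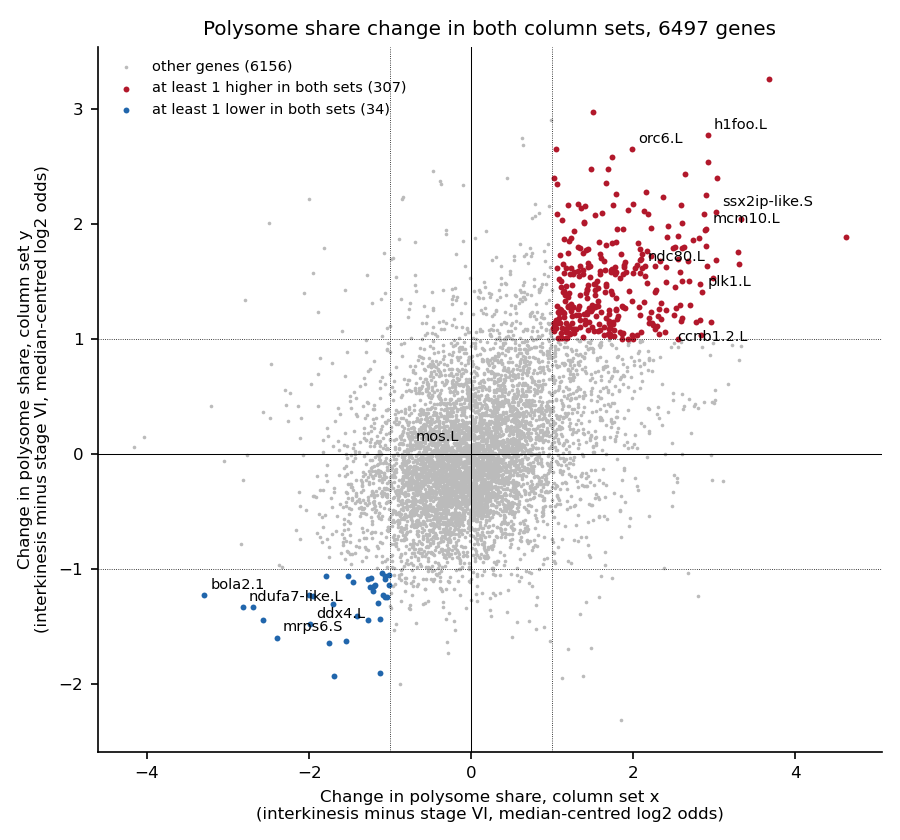
Each point is 1 of 6497 genes, with the centred change in polysome share (log2 odds, interkinesis minus stage VI) in column set x on the horizontal axis and in y on the vertical axis. Dotted lines mark changes of 1 in either direction. The 307 genes higher in both sets fill the upper right corner, with h1foo.L and orc6.L among the highest, and the 34 lower in both sets form a sparse group at the lower left.

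The 12 named genes at higher shares, ranked by the smaller of the x and y changes, included genes of chromatin and DNA replication. Only genes with both interkinesis columns above both stage VI columns could be picked. Linker histone h1foo, the oocyte form of histone H1 that packs maternal chromatin, ranked first among genes with a symbol. h1foo.L had shares of 0.698 and 0.733 at interkinesis, against 0.296 and 0.313 at stage VI. Its homeolog h1foo.S had 0.674 and 0.785 at interkinesis, against 0.356 and 0.467 at stage VI. The limma changes of h1foo.L and h1foo.S were 2.53 ± 0.67 and 1.98 ± 0.72 (raw log2 odds, SE).

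orc6.L, a subunit of the origin recognition complex, had 0.571 and 0.731 at interkinesis, against 0.316 and 0.328 at stage VI. mcm10.L, which helps to start DNA unwinding at origins, had 0.642 and 0.581 at interkinesis, against 0.248 and 0.288 at stage VI. rpain.S, which carries the single-strand binding protein RPA into the nucleus, had 0.577 and 0.687 at interkinesis, against 0.320 and 0.355 at stage VI. Lack of overlap between the stages was a condition for picking these genes. The chromatin remodeller hells, needed for DNA methylation in other vertebrates, was high from both homeologs: hells.L had 0.556 and 0.616 at interkinesis, against 0.269 and 0.317 at stage VI, and hells.S had 0.50 and 0.498 at interkinesis, against 0.328 and 0.343 at stage VI.

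Cell division and RNA processing supplied further members. cep55-like.L, related to the midbody protein that acts in the final cut between daughter cells, had 0.655 and 0.726 at interkinesis, against 0.374 and 0.409 at stage VI. ssx2ip-like.S, related to a protein of centriolar satellites, had 0.716 and 0.620 at interkinesis, against 0.299 and 0.300 at stage VI. Its homeolog ssx2ip-like.L was less even between the sets, at 0.530 and 0.312 at interkinesis, against 0.201 and 0.277 at stage VI. magoh.S, a core protein of the exon junction complex, had 0.732 and 0.692 at interkinesis, against 0.411 and 0.391 at stage VI, and magoh.L had 0.725 and 0.611 at interkinesis, against 0.461 and 0.435 at stage VI. med30.S, a subunit of the Mediator complex of RNA polymerase II, had 0.677 and 0.706 at interkinesis, against 0.392 and 0.359 at stage VI. The tight junction protein gene marveld3.L had 0.682 and 0.731 at interkinesis, against 0.280 and 0.346 at stage VI. prr13-like.L had 0.764 and 0.701 at interkinesis, against 0.418 and 0.328 at stage VI. That no stage VI column reached an interkinesis column in the picked genes was required by the rule.

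Genes at lower shares included a germ cell helicase and mitochondrial and biosynthetic enzymes. ddx4.L, the frog relative of the germ cell RNA helicase Vasa, had 0.197 and 0.249 at interkinesis, against 0.572 and 0.510 at stage VI. ddx4.S lay the same way but wider apart, at 0.245 and 0.464 at interkinesis, against 0.631 and 0.557 at stage VI. The limma change of ddx4.L was -2.05 ± 0.36 (raw log2 odds, SE), and that of ddx4.S was -1.47 ± 0.56.

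mrps6.S, a protein of the mitochondrial ribosome, had 0.0894 and 0.287 at interkinesis, against 0.416 and 0.578 at stage VI. ndufa7-like.L, related to a subunit of respiratory complex I, had 0.0558 and 0.298 at interkinesis, against 0.365 and 0.546 at stage VI. lars.L, the leucyl-tRNA synthetase, had 0.173 and 0.205 at interkinesis, against 0.483 and 0.417 at stage VI. The interkinesis columns of mrps6.S and ndufa7-like.L stood far from each other, while those of lars.L were close. phax.S, the export adaptor of small nuclear RNAs, had 0.131 and 0.137 at interkinesis, against 0.355 and 0.321 at stage VI. Its homeolog phax.L had 0.347 and 0.163 at interkinesis, against 0.355 and 0.287 at stage VI, so the lower share was clear in 1 column set only.

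zfand3.S had 0.188 and 0.191 at interkinesis, against 0.481 and 0.451 at stage VI, with the interkinesis columns close together. alg5.S, which makes the dolichol-linked glucose donor for N-glycosylation, had 0.222 and 0.205 at interkinesis, against 0.483 and 0.393 at stage VI. alg5.L had 0.224 and 0.128 at interkinesis, against 0.449 and 0.281 at stage VI, and alg5 was the 1 symbol with both homeologs among the 34. The remaining named genes were the transcription factor gene atf2.S, the Rab11 exchange factor gene sh3bp5.L, tmem110.2.L, the iron-sulphur cluster protein gene bola2.1 and rp9.L. Their shares ran from 0.0283 (bola2.1, x) to 0.273 (sh3bp5.L, y) at interkinesis, against 0.263 (tmem110.2.L, y) to 0.50 (sh3bp5.L, y) at stage VI. Over the 24 genes named by this rule, the Benjamini-Hochberg adjusted p of limma ran from 0.212 to 0.286, all 24 had an unadjusted p under 0.05, and with the column set as a block the adjusted p ran from 0.0812 to 0.106. The 24 were picked for large changes in these same columns, so their small p-values follow from the choice and are no support for it.

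**Figure D2:**
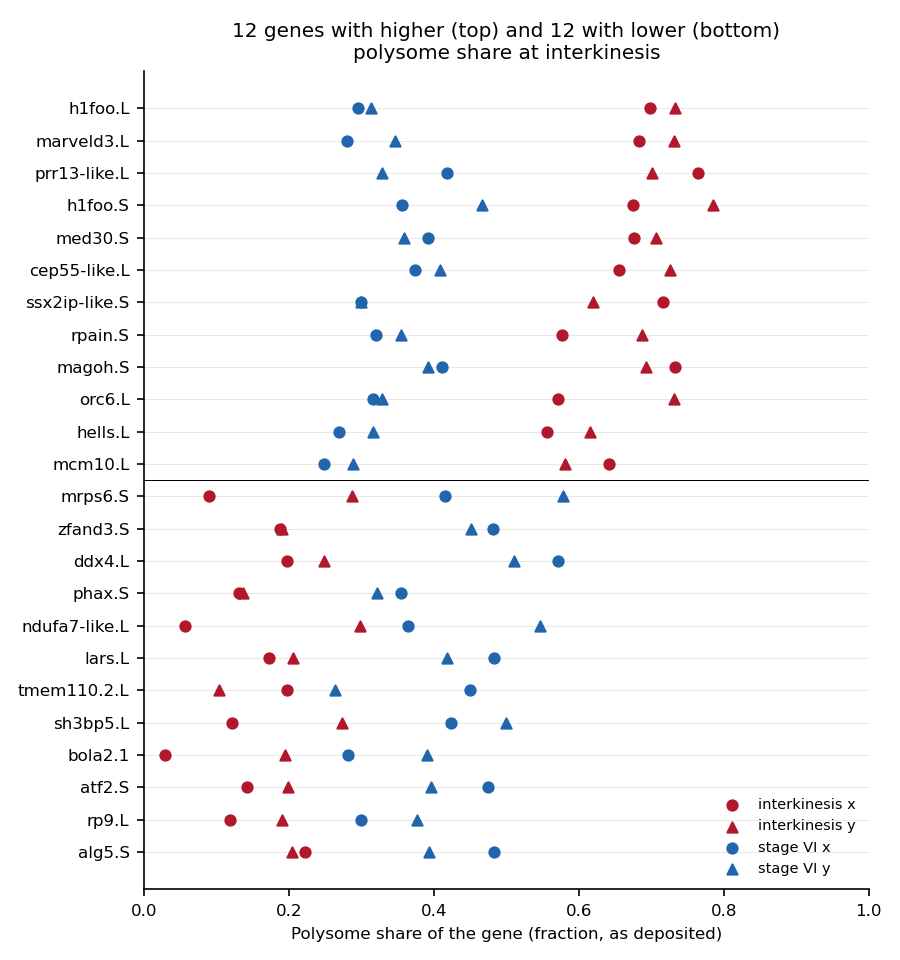
Polysome shares (fraction, horizontal axis) of the 12 genes with the highest and the 12 with the lowest change shared by both column sets; circles are column set x, triangles y, red interkinesis and blue stage VI. In every row the red and blue symbols are apart, as the choice of genes required. The upper rows reach shares of 0.785 at interkinesis, against at most 0.467 at stage VI.

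Regulators of M phase differed from gene to gene. Polo-like kinase plk1, which drives mitotic and meiotic entry and spindle assembly, was high from both homeologs. plk1.L had shares of 0.705 and 0.501 at interkinesis, against 0.313 and 0.300 at stage VI, and plk1.S had 0.692 and 0.444 at interkinesis, against 0.395 and 0.294 at stage VI. nek2-like.1.S, related to a centrosome-splitting kinase, had 0.764 and 0.659 at interkinesis, against 0.153 and 0.372 at stage VI. It was chosen through its list, and its change in x of 4.63 was far above that in y of 1.88.

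Cyclin B1, the activating partner of Cdk1, showed the same order of the columns with a gap between sets. ccnb1.2.L had 0.582 and 0.331 at interkinesis, against 0.257 and 0.227 at stage VI, and ccnb1.2.S had 0.579 and 0.378 at interkinesis, against 0.275 and 0.250 at stage VI. Both interkinesis columns exceeded both stage VI columns in the pair, and the x columns exceeded the y columns. limma gave raw changes of 1.38 ± 0.52 and 1.36 ± 0.55, with Benjamini-Hochberg adjusted p of 0.258 and 0.279.

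Cyclin B2 overlapped between stages. ccnb2.S had 0.559 and 0.350 at interkinesis, against 0.364 and 0.275 at stage VI, and ccnb2.L had 0.341 and 0.404 at interkinesis, against 0.346 and 0.276 at stage VI. The A-type cyclins were close to their stage VI values: ccna1.L had 0.282 and 0.194 at interkinesis, against 0.255 in both columns at stage VI, and ccna2.L had 0.338 and 0.265 at interkinesis, against 0.334 and 0.314 at stage VI. ccna1.S had 0.457 and 0.249 at interkinesis, against 0.353 and 0.241 at stage VI. For ccna1.L and ccna2.L the sign of the change turned with the scaling, lower as deposited and higher after centring or quantile normalization.

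mos, the kinase that starts the MAPK cascade of maturation and later holds the egg at meiosis II, was not higher. mos.L had 0.210 and 0.277 at interkinesis, against 0.381 and 0.293 at stage VI. The spindle kinase aurka overlapped between stages, with aurka.L at 0.528 and 0.456 at interkinesis, against 0.532 and 0.319 at stage VI. aurka.S was at 0.381 and 0.580 at interkinesis, against 0.497 and 0.376 at stage VI. These shares were above the column medians, except that aurka.L at stage VI in y was near the median of 0.321. No share was listed under the symbols wee2, cdc20, cpeb1 or cpeb4.

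Inhibitors of the anaphase-promoting complex, the ubiquitin ligase that ends M phase, differed between the paralogs. fbxo43 (Emi2) sets the complex aside so that the oocyte can hold at meiosis II. fbxo43-like.S had 0.627 and 0.380 at interkinesis, against 0.256 and 0.342 at stage VI, and fbxo43-like.L had 0.575 and 0.235 at interkinesis, against 0.261 and 0.258 at stage VI. The x columns showed a large gap in both and the y columns little or none. fbxo5 (Emi1) was low at both stages. fbxo5.L had 0.234 and 0.265 at interkinesis, against 0.173 and 0.238 at stage VI, and fbxo5.S had 0.170 and 0.237 at interkinesis, against 0.204 and 0.235 at stage VI. btg4, an adaptor of the CCR4-NOT deadenylase, was again high mainly in x: btg4.L had 0.469 and 0.257 at interkinesis, against 0.261 and 0.265 at stage VI, and btg4.S had 0.420 and 0.322 at interkinesis, against 0.280 and 0.297 at stage VI.

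As a list, 11 of 25 cyclin and M-phase kinase genes (44%) were higher in both column sets and 3 (12%) lower, beside 31.3% and 32.2% of all genes. Higher past 1 were 4 (16%, beside 4.73% of all genes): plk1.L, plk1.S, nek2-like.1.S and ccnb1.2.S. The median change was 0.48 (x) and 0.43 (y), beside 0.02 and -0.03 for all genes. It was above 0 under all 3 scalings, though only 0.02 and 0.25 as deposited. No member was called. Of 14 genes of the anaphase-promoting complex and the spindle checkpoint, 6 were higher in both sets, 2 lower and 0 past 1, with medians of 0.15 and 0.13 that turned to -0.31 and -0.04 without centring. Of the ubiquitin enzymes, 3 of 68 (4.41%) were higher past 1, near the 4.73% of all genes. Among them ube2c, the E2 that works with the anaphase-promoting complex, was past 1 from both homeologs. ube2c.L had 0.544 and 0.646 at interkinesis, against 0.353 and 0.382 at stage VI, and ube2c.S had 0.582 and 0.666 at interkinesis, against 0.343 and 0.367 at stage VI.

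Spindle, kinetochore and cohesion genes had the most members past 1 by count, but not by percent (21.2%, beside 37.5% of the 8 histone genes). Of 66 measured, 34 (51.5%) were higher in both column sets and 10 (15.2%) lower, beside 31.3% and 32.2% of all genes. Past 1 were 14 higher (21.2%) and 1 lower (1.52%), beside 4.73% and 0.523% of all genes. The median change was 0.31 (x) and 0.24 (y). Without centring 10 were higher past 1 and 1 lower, where 2.28% and 2.05% of all genes were. As deposited, without centring, the list's median was -0.14 in x and 0.06 in y, so its direction holds only relative to the median gene. The members past 1 spanned the machine that pulls chromosomes apart.

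Of the kinetochore proteins that grip microtubules, ndc80.L had shares of 0.560 and 0.643 at interkinesis, against 0.289 and 0.399 at stage VI. Its partner spc25.L had 0.509 and 0.537 at interkinesis, against 0.278 and 0.296 at stage VI. cenpe-like.L, related to a kinetochore motor, had 0.393 and 0.495 at interkinesis, against 0.261 and 0.324 at stage VI. These 3 genes were separated between stages in every column, which their choice as members past 1 made likely.

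The chromosomal passenger complex, which corrects faulty attachments, was represented by incenp and cdca8. incenp.S had 0.546 and 0.554 at interkinesis, against 0.254 and 0.344 at stage VI, and incenp.L had 0.453 and 0.506 at interkinesis, against 0.259 and 0.342 at stage VI. cdca8.L had 0.431 and 0.346 at interkinesis, against 0.275 and 0.199 at stage VI. Among the motors, kif11.S (Eg5), which pushes spindle poles apart, had 0.680 and 0.574 at interkinesis, against 0.397 and 0.328 at stage VI. kif2c (MCAK), which depolymerises microtubules, was past 1 from both homeologs, with kif2c.L at 0.617 and 0.520 at interkinesis, against 0.296 and 0.302 at stage VI.

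Cohesion genes belonged to both sides of the cut. espl1 encodes separase, the protease that opens cohesin, and sgol1 encodes shugoshin, which shields it. espl1-like.L had 0.574 and 0.518 at interkinesis, against 0.302 and 0.272 at stage VI, and espl1-like.S had 0.473 and 0.506 at interkinesis, against 0.247 and 0.278 at stage VI. sgol1.L had 0.497 and 0.511 at interkinesis, against 0.270 and 0.285 at stage VI. smc3.L, a cohesin ring subunit, had 0.355 and 0.537 at interkinesis, against 0.256 and 0.294 at stage VI. The lower exception was the alpha-tubulin gene tuba4b.S, with 0.174 and 0.141 at interkinesis, against 0.399 and 0.292 at stage VI. Condensin and related genes showed no common direction, with 3 of 7 higher and 3 lower.

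DNA replication genes were divided. Of 21 measured, 10 (47.6%) were higher in both sets and 4 (19.0%) lower, beside 31.3% and 32.2% of all genes. Higher past 1 were 4 (19.0%, beside 4.73% of all genes): orc6.L, mcm10.L, orc1.L and fen1.L. orc1.L, which marks origins, had 0.727 and 0.559 at interkinesis, against 0.340 and 0.339 at stage VI, and fen1.L, the flap nuclease that trims Okazaki fragments, had 0.606 and 0.693 at interkinesis, against 0.439 and 0.486 at stage VI. The list's median turned sign with scaling, at 0.26 and 0.56 after centring, -0.20 and 0.38 as deposited and -0.16 after quantile normalization. Histone genes were fewer but closer together: 7 of 8 (87.5%) were higher in both sets and 3 (37.5%) past 1. Their median was 0.59 (x) and 1.34 (y), or 0.14 and 1.16 as deposited, and its sign held under all 3 scalings. As deposited 4 of the 8 were higher in both sets and 1 lower, beside 17.8% and 53.1% of all genes. Beside h1foo they included hist1h2aa.L, at 0.635 and 0.722 at interkinesis, against 0.415 and 0.395 at stage VI.

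DNA methyltransferase dnmt1, which copies methylation marks after replication, was past 1 from both homeologs. Its changes were 2.90 and 1.81 for dnmt1.L and 2.62 and 1.80 for dnmt1.S. It was named after its values were seen.

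Splicing genes formed the other large group at higher shares. Of 44 measured, 25 (56.8%) were higher in both column sets and 6 (13.6%) lower, beside 31.3% and 32.2% of all genes. Higher past 1 were 9 (20.5%, beside 4.73% of all genes). The median change was 0.33 (x) and 0.79 (y), or -0.13 and 0.61 as deposited. SR proteins, which bind exons and recruit the spliceosome, led it: srsf11-like.L had 0.719 and 0.712 at interkinesis, against 0.323 and 0.421 at stage VI, and srsf5.L had 0.758 and 0.606 at interkinesis, against 0.400 and 0.379 at stage VI. srsf5.S had 0.575 and 0.535 at interkinesis, against 0.436 and 0.349 at stage VI.

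Spliceosome core and hnRNP genes lay the same way. prpf38a.L, needed to activate the spliceosome, had 0.784 and 0.574 at interkinesis, against 0.438 and 0.323 at stage VI. snrpa.S, a protein of the U1 particle, had 0.506 and 0.448 at interkinesis, against 0.289 and 0.263 at stage VI, and snrpb.L, an Sm ring protein, had 0.507 and 0.533 at interkinesis, against 0.392 and 0.327 at stage VI. hnrnpab.S had 0.645 and 0.624 at interkinesis, against 0.410 and 0.394 at stage VI.

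Components of the translation apparatus itself were at lower shares. Of 30 large ribosomal subunit genes, 20 (66.7%) were lower in both column sets and 1 higher, beside 32.2% and 31.3% of all genes. Their median change was -0.57 (x) and -0.71 (y). Of 16 small subunit genes, 10 (62.5%) were lower in both and 0 higher, with a median of -0.54 and -0.44. Both directions held as deposited and after quantile normalization. No member was called. In limma 19 in all had an unadjusted p under 0.05 (14 large and 5 small), beside 1041 of all 6497 genes. That fit used uncentred columns, where 821 of the 1041 were lower, so these p-values are not relative to the median gene.

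After centring, only rpl24.L was lower by 1 or more in both sets (3.33% of the large subunit genes, beside 0.523% of all genes). It had 0.197 and 0.201 at interkinesis, against 0.413 and 0.372 at stage VI. rpl35.S had 0.235 and 0.221 at interkinesis, against 0.435 and 0.368 at stage VI, and rpl19.S had 0.238 and 0.276 at interkinesis, against 0.430 and 0.477 at stage VI. rps13.L of the small subunit had 0.251 and 0.248 at interkinesis, against 0.432 and 0.392 at stage VI. As deposited, without centring, 6 of the 30 large subunit genes and 1 of the 16 small subunit genes were lower by 1 or more in both sets. Of all genes 2.05% were.

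Elongation factors, which feed tRNAs to the ribosome and move it along, followed in 3 of 5 genes. eef1g.L had 0.213 and 0.259 at interkinesis, against 0.339 and 0.393 at stage VI. Initiation factors were mixed, 13 of 41 (31.7%) higher and 20 (48.8%) lower in both sets, beside 31.3% and 32.2% of all genes. Within them eif4g2, a relative of the eIF4G scaffold used for initiation without the cap-binding protein, was past 1 from both homeologs. These were the only 2 members past 1 (4.88%, near the 4.73% of all genes), and as deposited 0 members were. eif4g2.L had 0.387 and 0.422 at interkinesis, against 0.277 and 0.278 at stage VI, and eif4g2.S had 0.376 and 0.416 at interkinesis, against 0.288 and 0.268 at stage VI. The list's lower end held eif4g3-like.L, at 0.223 and 0.270 at interkinesis, against 0.408 and 0.404 at stage VI. Mitochondrial ribosomal protein genes showed no common direction, with 8 of 20 higher and 5 lower.

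Nuclear import and export genes were lower in 11 of 20 cases (55.0%) and higher in 2 (10%), beside 32.2% and 31.3% of all genes. Their medians were -0.20 and -0.31. The importin alpha gene kpna3.S had 0.177 and 0.213 at interkinesis, against 0.352 and 0.306 at stage VI. Of 33 nuclear-encoded respiratory chain genes, 13 (39.4%) were lower in both sets and 3 (9.09%) higher, with medians of -0.40 and -0.10. Of 25 proteasome genes 9 (36%) were lower and 5 (20%) higher. In both lists the percent lower was near the 32.2% of all genes, and the percent higher was below the 31.3%. Without the x column of interkinesis the respiratory list's median turned to 0.09. Among the mRNA decay and polyadenylation factors, 16 of 44 were lower and 14 higher. The lowest of these was zfp36l1.L, which directs mRNAs with AU-rich elements to decay, at 0.180 and 0.205 at interkinesis, against 0.469 and 0.355 at stage VI. ddx6, a helicase of stored and decaying mRNPs, was lower from both homeologs, with ddx6.S at 0.206 and 0.260 at interkinesis, against 0.378 and 0.353 at stage VI.

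The protein phosphatase list was mixed as a whole (11 of 37 higher, 7 lower), with 3 (8.11%) higher past 1, beside 4.73% of all genes. It held a pair far out. ppp2r2b, a B regulatory subunit of phosphatase PP2A, had 0.733 and 0.482 (ppp2r2b.L) at interkinesis, against 0.276 and 0.251 at stage VI. ppp2r2b.S had 0.637 and 0.562 at interkinesis, against 0.358 and 0.302 at stage VI. Chaperones (12 of 50 higher in both sets and 16 lower), ubiquitin enzymes (21 and 25 of 68), membrane traffic (10 and 18 of 47), solute carriers (16 and 20 of 61) and zinc finger genes (24 and 16 of 66) were mixed. Of 5 egg coat genes, 1 was higher in both sets and 1 lower.

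**Figure D3:**
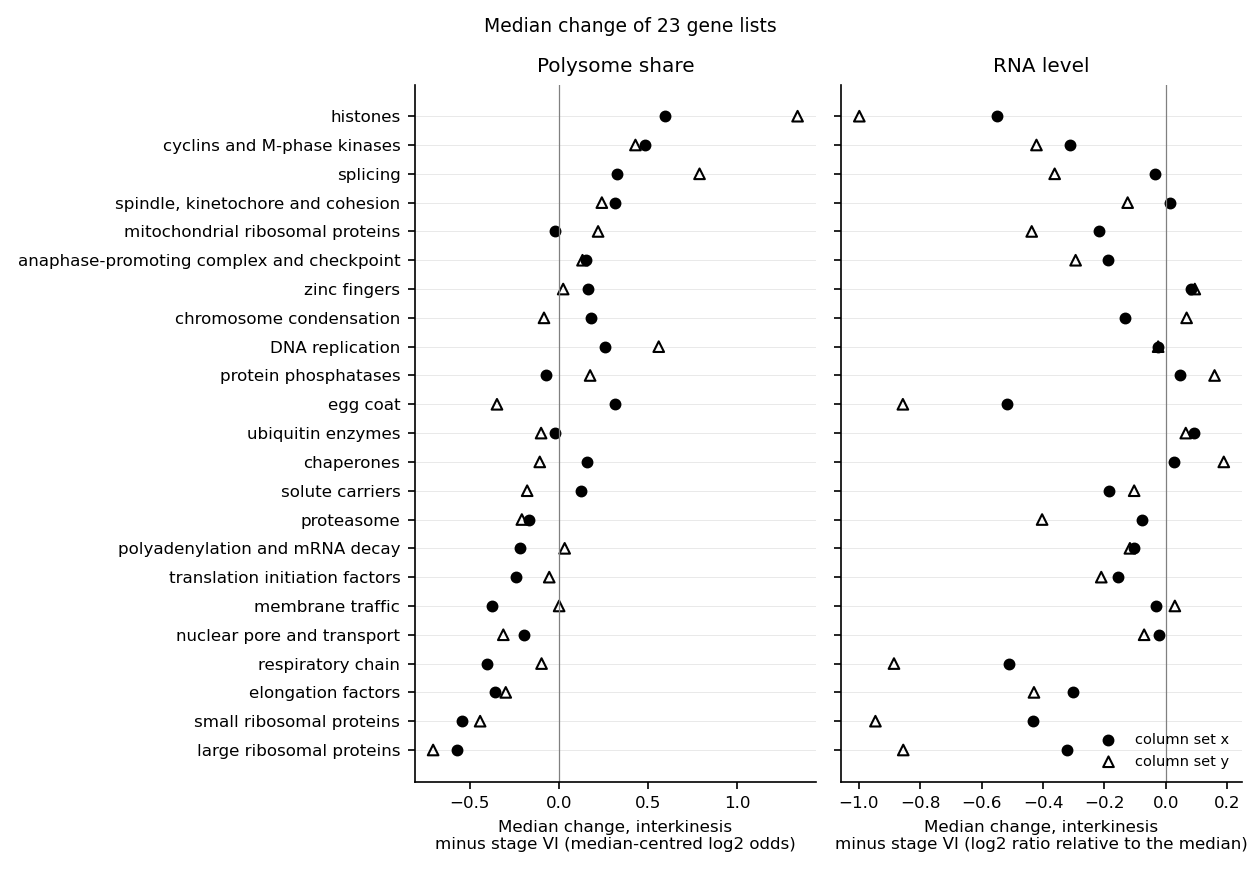
Median change of 23 gene lists at interkinesis relative to stage VI, polysome share on the left (centred log2 odds) and RNA level on the right (log2 ratio relative to the median ratio); filled circles are column set x and open triangles y. Histones, M-phase kinases, splicing and spindle genes lie above 0 in both sets, the last 2 only after centring (in x their medians as deposited are -0.13 and -0.14), and ribosomal proteins lie lowest, at -0.57 and -0.71 for the large subunit, while levels of ribosomal, respiratory chain, histone and egg coat genes are lowest on the right.

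Homeologs were compared within the limit that near-identical pairs can share reads. Of the 307 genes at higher shares, 122 had the other homeolog measured. In 107 of these (87.7%) the other homeolog was higher in both column sets too, in 58 (47.5%) it was also past 1, and in 2 it was lower in both. Of all genes 31.3% were higher in both sets, 4.73% were higher past 1 and 32.2% were lower in both. The 58 genes form 29 pairs. Of the 34 at lower shares, 11 had a measured homeolog, of which 7 were lower in both sets, with alg5 as the single pair past 1. Across all 1170 measured pairs the mean changes of the homeologs had a Pearson r of 0.602 and the same sign in 69.2%.

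The 29 pairs spanned nuclear and membrane proteins, and those given here were chosen after their values were seen. The centred x and y changes of hmgb3, a chromatin protein, were high in both homeologs (1.99 and 1.57 for .L, 1.39 and 2.02 for .S) and the nuclear pore assembly factor ahctf1 (ELYS; 1.56 and 1.29, 1.25 and 1.47). sarnp, an mRNA export protein, was at 1.80 and 1.96 for .L and 2.52 and 1.80 for .S, and the spliceosome factor cwc25 at 2.23 and 1.14, and 2.31 and 1.2. Epithelial membrane genes were there as well, with the tight junction claudin cldn6.1 (1.93 and 2.12, 1.79 and 1.84), the claudin cldn6.2 (2.56 and 1.0, 2.02 and 1.62) and the adhesion molecule epcam (1.53 and 1.48, 1.83 and 1.06). In every pair all 4 values were at or above 1, as the count requires.

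The same genes were followed over the 5 stages; the stage VI and interkinesis columns chose them, and the columns of the other 3 stages did not. From stage VI through PG90 (90 minutes after progesterone), meiosis I, interkinesis and meiosis II, the 307 genes had a median share in x of 0.330, 0.374, 0.481, 0.550 and 0.459. In y it was 0.327, 0.365, 0.508, 0.537 and 0.617. All genes together had 0.332, 0.299, 0.274, 0.266 and 0.233 in x and 0.321, 0.321, 0.301, 0.295 and 0.268 in y. At PG90, meiosis I and meiosis II the 307 genes had the higher median in both column sets. The 34 genes at lower shares had medians of 0.418, 0.290, 0.237, 0.159 and 0.197 in x and 0.381, 0.324, 0.284, 0.197 and 0.181 in y.

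A comparison that shares no column with the choice of genes is meiosis II against PG90. There 272 of the 307 genes (88.6%) were higher in both column sets, against 31.5% of all genes, and 1 was lower in both. At least 1 log2 odds in both sets was reached by 146 of them, against 342 of all 6497 genes (5.26%). Of the 34 genes, 19 (55.9%) were lower in both sets at meiosis II, against 30.4% of all genes, and 1 was higher.

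The gene lists were counted in the same columns, where 31.5% of all genes were higher in both sets and 30.4% lower. At meiosis II against PG90, 43 of 66 spindle, kinetochore and cohesion genes were higher in both sets and 4 lower, and so were 29 of 44 splicing genes, with 6 lower. Of the 30 large ribosomal protein genes 20 were lower and 1 higher. M-phase kinases and cyclins were higher in 15 of 25 and lower in 1. ccnb1.2.L had 0.517 and 0.685 at meiosis II, against 0.190 and 0.236 at PG90, and ccnb2.L, which overlapped at interkinesis, had 0.429 and 0.719 at meiosis II, against 0.367 and 0.276 at PG90. btg4.L, high in 1 interkinesis column only, had 0.506 and 0.515 at meiosis II, against 0.202 and 0.257 at PG90.

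Single genes differed in when their share was high. At meiosis I orc1.L stood at 0.381 and 0.452, against 0.727 and 0.559 at interkinesis, whereas plk1.L was already at 0.656 and 0.558. ccnb1.2.L was at 0.275 and 0.239 at meiosis I, close to its stage VI values of 0.257 and 0.227. ddx4.L was at 0.206 and 0.297 at meiosis I and 0.220 and 0.198 at meiosis II. mrps6.S was at 0.359 and 0.475 at meiosis I and 0.287 and 0.342 at meiosis II, against 0.0894 and 0.287 at interkinesis. Interkinesis was its lowest stage in both sets, by far more in x.

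**Figure D4:**
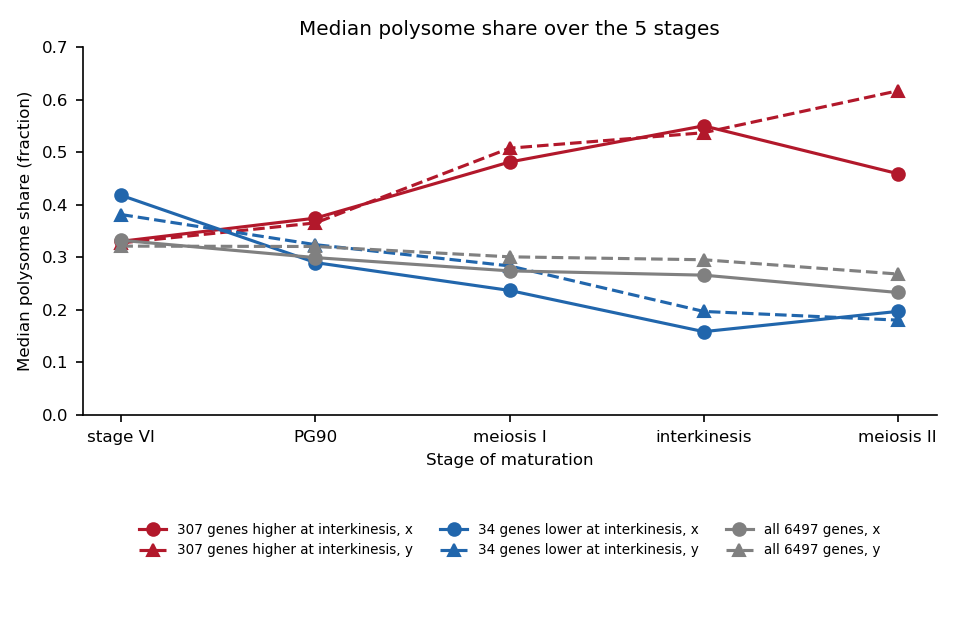
Median polysome share (vertical axis, fraction) at the 5 stages in order of maturation, for the 307 genes higher and the 34 lower at interkinesis and for all 6497 genes; solid lines are column set x and dashed lines y. The first set starts at 0.330 and 0.327, beside 0.332 and 0.321 for all genes, and reaches 0.550 and 0.537 at interkinesis, while the second lies below the line of all genes from meiosis I on in both column sets.

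RNA levels at interkinesis and stage VI had close medians within each column set. The deposited level is a number of unstated unit per gene and stage, and its scale differs between the column sets. Its median was 43.1 (x) and 8.61 (y) at interkinesis, against 44.7 and 9.53 at stage VI. The ratio of interkinesis to stage VI had a median of 0.03 (x) and 0.02 (y) on the log2 scale. The RNA was captured by its poly(A) tail, per the labels' protocols, so the amount of an RNA and the part of it with a tail long enough for capture cannot be told apart in these levels. In pooled oocytes, fewer cells with an RNA and less RNA per cell cannot be told apart either.

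limma-trend on the centred log2 levels called 0 of 11765 names at a Benjamini-Hochberg adjusted p under 0.05 (percent called 0), with a smallest adjusted p of 0.992. Without adjustment, 370 names had a p below 0.05, 192 higher and 178 lower. With the column set as a block, 3106 names did (2050 higher and 1056 lower), still with 0 called. The block takes up differences between x and y that a name keeps over the stages after centring. Ratios of 2 or more in both sets were found for 74 names (0.629%), and levels were lower by as much for 168 (1.43%). Over the 11765 names, Pearson's r between the x and y log2 ratios was 0.366 and Spearman's rho 0.526. For the 24 names given by rule below, the limma adjusted p was 0.992 throughout and 0.108 to 0.442 with the column set as a block.

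Transcripts of the mitochondrial genome stood at higher levels. They were grouped after their levels were seen. All 11 listed protein genes were higher in both column sets, 10 of them by at least 2-fold (90.9%, beside 0.629% of all names). Their median log2 ratios were 1.82 (x) and 1.32 (y), and the direction was the same relative to the median ratio and after quantile normalization. ND3, a complex I subunit, had a level of 1726 and 22414 at interkinesis, against 300 and 6229 at stage VI. COX1, the catalytic subunit of cytochrome c oxidase, had 8052 and 25922 at interkinesis, against 1243 and 10466 at stage VI. CYTB of complex III had 193 and 866 at interkinesis, against 40.0 and 348 at stage VI. ATP6 of the ATP synthase had 3167 and 27109 at interkinesis, against 1155 and 10946 at stage VI. These genes belong to 4 different complexes, and in each column set interkinesis was the higher stage, although the y columns were on a scale far above the x columns for these genes.

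The weakest of the group was ND6, at 354 and 1482 at interkinesis, against 156 and 1126 at stage VI. The 12S ribosomal RNA of the mitochondrion had 152 and 75.2 at interkinesis, against 21.5 and 14.2 at stage VI. Of 5 tRNA names, tRNA-Gln had 8256 and 120227 at interkinesis, against 1840 and 24755 at stage VI, tRNA-Ile had 5351 and 43038 at interkinesis, against 153 and 11997 at stage VI, and tRNA-Asn was lower in x, at 5030 and 51090 at interkinesis, against 5880 and 14663 at stage VI. The names do not say which genome a tRNA comes from. Over the stages the median log2 ratio of the 11 protein genes to stage VI was 0.81 and 1.41 at PG90, 1.29 and 0.70 at meiosis I, 1.82 and 1.32 at interkinesis, and 1.44 and 1.59 at meiosis II. Their median was thus above stage VI at each later stage in both column sets. Single genes could differ: ND2 in x was at 881 at PG90, against 915 at stage VI. All ratios of a column set share its stage VI column, so the stages are not independent.

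Nuclear-encoded names of the respiratory chain lay mostly the other way. The list goes by symbol, so beside subunits of these complexes it holds complex II genes, assembly factors (ndufaf) and cytochrome c. Of 105 nuclear respiratory chain names, 82 (78.1%) were lower in both sets relative to the median ratio and 6 higher, beside 35.6% in each direction for all names, and the median log2 ratios were -0.48 (x) and -0.86 (y) as deposited. cox7b.L had 105 and 4.12 at interkinesis, against 255 and 16.5 at stage VI, and cox6a1.S had 139 and 5.82 at interkinesis, against 303 and 36.7 at stage VI. atp5d.S of the ATP synthase had 38.6 and 2.38 at interkinesis, against 90.0 and 6.52 at stage VI. Both column sets were lower by 2-fold or more in these names, as in 5 of the 105 (4.76%, beside 1.43% of all names), and 0 were higher by as much. Without the y column of interkinesis the list's median change was 0.06 and its sign turned.

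**Figure D5:**
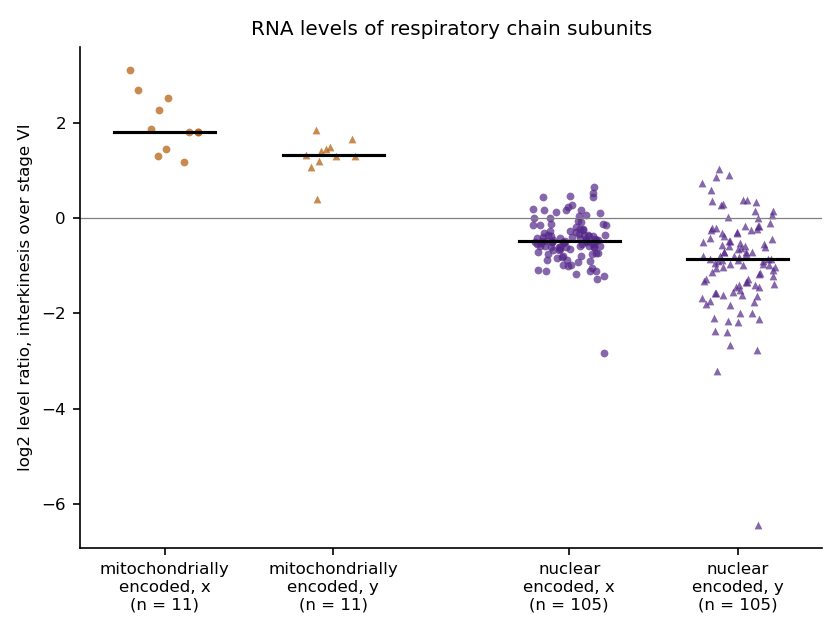
log2 ratio of RNA level at interkinesis over stage VI (vertical axis) for 11 mitochondrially encoded subunits and 105 nuclear-encoded names of the respiratory chain list, in column sets x and y. Each symbol is a name and the bar is the median. The mitochondrial names all lie above 0, with medians of 1.82 and 1.32, and most nuclear ones below, with medians of -0.48 and -0.86.

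Ribosomal protein mRNAs were lower in level as well as in share. Of 63 large subunit names, 47 (74.6%) were lower in both sets and 7 higher, beside 35.6% of all names in each direction. Their medians relative to the median ratio were -0.32 (x) and -0.86 (y). Of 49 small subunit names, 45 (91.8%) were lower and 1 higher, with medians of -0.43 and -0.95. rplp0.L, a protein of the ribosomal stalk, had a level of 49.9 and 3.25 at interkinesis, against 137 and 22.4 at stage VI, and rplp1.L of the same stalk had 461 and 181 at interkinesis, against 1321 and 463 at stage VI. Past 2-fold, 6 of the 63 were lower (9.52%, beside 1.43% of all names) and 1 higher (1.59%, beside 0.629%). The higher one was rpl14.S, at 37032 and 10105 at interkinesis, against 10776 and 3926 at stage VI.

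Of 79 mitochondrial ribosomal names 51 were lower in both sets and 7 higher, beside 35.6% of all names in each direction. The sign of the list's median (-0.30) turned without the y column of interkinesis or the x column of stage VI, to at most 0.088. Of 21 histone names 13 were lower and 0 higher, led by hist2h3c.L at 6069 and 248 at interkinesis, against 12742 and 2308 at stage VI. All 6 egg coat names were lower in both sets, among them the zona pellucida gene zp3.S at 30.0 and 2.38 at interkinesis, against 58.0 and 5.18 at stage VI. Cyclins and M-phase kinases were lower in 27 of 43 and higher in 7. ccna2.L had 156 and 19.7 at interkinesis, against 351 and 44.7 at stage VI, and ccnb2.S had 5548 and 127 at interkinesis, against 9890 and 875 at stage VI. mos.L was close to its stage VI level, at 104 and 23.6 at interkinesis, against 107 and 19.3 at stage VI.

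Of 87 polyadenylation and mRNA decay names, 37 (42.5%) were lower in both sets and 20 (23%) higher, beside 35.6% of all names in each direction. Past 2-fold were 2 lower (2.30%, beside 1.43% of all names) and 1 higher (1.15%, beside 0.629%), each close to the percent of all names. ybx2.L, the oocyte Y-box protein that packages maternal mRNA, had 10606 and 92.0 at interkinesis, against 25708 and 439 at stage VI. pabpn1l.S, a poly(A) binding protein, had 83.9 and 5.90 at interkinesis, against 223 and 12 at stage VI. patl2.L, another protein of stored mRNPs, was the member past 2-fold higher, at 81.7 and 24.4 at interkinesis, against 32.7 and 7.32 at stage VI.

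Several of the highest ratios came from a single homeolog. hmbox1.S, a telomere-binding homeobox gene, had a level of 48.0 and 50.5 at interkinesis, against 2.90 and 1.0 at stage VI, while hmbox1.L had 47.0 and 12.5 at interkinesis, against 44.7 and 23.6 at stage VI. mbd1.L, a methyl-CpG binding protein gene, had 1870 and 34.4 at interkinesis, against 23.7 and 4.34 at stage VI, and mbd1.S had 6.89 and 2.51 at interkinesis, against 8.95 and 1.44 at stage VI. cflar.S, an inhibitor of caspase-8, had 854 and 26.4 at interkinesis, against 10.1 and 4.24 at stage VI, and cflar.L had 8.30 and 2.95 at interkinesis, against 8.14 and 1.81 at stage VI. The partners had ratios between 0.530 (hmbox1.L, y) and 1.74 (mbd1.S, y). The stage VI level of hmbox1.S in y is the lowest value of that column, so its ratio in y is set by the floor of the table. hmbox1.S was also uneven between the sets at other stages, at 3.85 and 44.1 at meiosis I and 75.4 and 1.88 at meiosis II. Of the 19 names at higher levels with a measured homeolog, 12 (63.2%) had a partner that was higher in both sets and 3 one that was lower. Of all names 37.7% were higher in both sets as deposited and 35.6% relative to the median ratio. A partner past 2-fold was found for 0 of the 19, near the 0.629% of all names.

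Others of the 12 with the highest ratios were the phosphatase gene ptpn11.L (SHP2; 196 and 28.2 at interkinesis, against 26.8 and 4.68 at stage VI) and the spliceosome gene sf3b2.L (981 and 126 at interkinesis, against 248 and 31.7 at stage VI). osbpl8.L, a lipid transfer protein gene, had 335 and 50.1 at interkinesis, against 43.5 and 12.4 at stage VI. kifap3.L, of the kinesin-2 motor, had 884 and 29.4 at interkinesis, against 42.6 and 8.03 at stage VI. Its level was unstable over the stages, at 16996 and 2055 at meiosis I and 52.6 and 5337 at meiosis II. xtm4 had 998 and 552 at interkinesis, against 248 and 7.06 at stage VI. In column set x the interkinesis levels of these genes were 3.96-fold (sf3b2.L) to 20.8-fold (kifap3.L) those of stage VI.

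At the lower end, several interkinesis levels lay near 1.01, the smallest value in that stage's y column. pex11a.L, a peroxisome division factor, had 7.33 and 1.2 at interkinesis, against 261 and 96.4 at stage VI. Its level was uneven between the sets at other stages, at 340 and 2.44 at PG90 and 56.5 and 131 at meiosis II. asb7.L, a ubiquitin ligase adaptor, had 21.0 and 1.24 at interkinesis, against 328 and 63.6 at stage VI. pigc.S, which acts in GPI anchor synthesis, had 12.3 and 1.27 at interkinesis, against 89.7 and 81.3 at stage VI, whereas pigc.L had 23.9 and 1.61 at interkinesis, against 30.7 and 1.94 at stage VI. rpl11.L had 192 and 15.9 at interkinesis, against 1774 and 192 at stage VI. The 3 genes named before it had y levels near the floor, and rpl11.L did not. However, rpl11.L was uneven between the sets at PG90, at 6721 and 14.1.

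mcm7.S, a subunit of the replicative helicase, had 93.6 and 60.6 at interkinesis, against 387 and 487 at stage VI. mcm7.L did not follow it, at 3964 and 996 at interkinesis, against 1654 and 1361 at stage VI. sfpq.L, a splicing and paraspeckle protein gene, had 183 and 3.40 at interkinesis, against 680 and 163 at stage VI, and sfpq.S had 52.3 and 22.1 at interkinesis, against 62.0 and 23.4 at stage VI. At meiosis II sfpq.L was uneven between the sets, at 164 and 221. The genes usp31.S, rab4b.S, ocrl.S, riok1.L, mrps18b.L and zfp91.S completed the 12, with ratios between 0.0410 (rab4b.S, y) and 0.259 (zfp91.S, y). Of 63 lower names with a measured homeolog, 45 had a partner that was lower in both sets, 5 one that was higher, and a single pair (tmem101) was past 2-fold together. Of all names 33.6% were lower in both sets as deposited and 35.6% relative to the median ratio. The members of that pair were 2 of the 63 names (3.17%), beside 1.43% of all names lower past 2-fold.

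The limits for share and level were also joined, and both measures come from the same libraries. Both were listed for 3307 genes. Of the 167 genes at higher shares found in both tables, 52 (31.1%) were higher in level in both sets and 41 (24.6%) lower, beside 43% and 30.5% of all genes in both tables. Both limits were met by 3 genes, each at a higher share. Of the 167, 2 were at least 2-fold higher in level and 1 lower by as much, beside 18 and 20 of all 3307 genes. These counts are too small to be compared with those of all genes. odc1.S, ornithine decarboxylase, the entry enzyme of polyamine synthesis, had shares of 0.707 and 0.486 at interkinesis, against 0.506 and 0.315 at stage VI, and levels of 170 and 20.0 at interkinesis, against 625 and 66.3 at stage VI. The other two were gene models without a symbol. Of 98 spindle, kinetochore and cohesion names, 36 (36.7%) were higher in level in both sets and 44 (44.9%) lower, beside 35.6% of all names in each direction.

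Poly(A) sites mapped by PAS-seq in stage VI oocytes were set beside the gene sets, a feature that the choice did not use. The 161 genes at higher shares with sites had a median of 78 PAS reads and 5 sites, and all 3136 genes with a share and sites had 46 reads and 4 sites. The 20 genes at lower shares had 63 reads and 3 sites. Among levels, the 143 names at least 2-fold lower had a median of 2 sites, and 56.6% had more than 1, beside 3 sites and 75% for all 9963. For h1foo.L, 449 reads fell on 7 sites, with 51.9% at the main one, and for dnmt1.L 491 reads fell on 26 sites, with 21.8% at the main one. ube2c.S was at the other extreme, with 97.5% of 198 reads at 1 of 2 sites. PAS reads have no molecular identifiers and both lanes are joined, so these are descriptions with no error of their own.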

How the data were processed

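Per the labels' protocols, oocyte extracts were separated on sucrose gradients and RNA of each fraction was selected by its poly(A) tail and sequenced. The submitters' processing notes name Bowtie, Bowtie2, TopHat2 and Cufflinks; their versions, roles and the genome build are not given in the sources used here. Polysome share is a fraction between 0 and 1 as deposited by the authors, and how they scaled the fractions to each other is not stated. Level is treated as a score, deposited by the authors as a sum over fractions per its column name, with no unit stated. PAS-seq sites are counts of reads deposited by the authors for both lanes together, from stage VI oocytes. Depth is unknown for shares and levels, so no counting interval is given.

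Shares were turned into log2 odds and levels into log2, with no pseudocount and no filter on low values. The 178 names listed more than once (692 rows) were left out. limma 3.58.1 (R 4.3.3, trended prior, all 10 columns of the 5 stages) compared interkinesis with stage VI, with Benjamini-Hochberg adjustment over the whole table and a threshold of 0.05; level columns were centred on their medians, share columns were not. Descriptions used Python 3.11.15 and pandas 2.3.3. A gene past the limit changed by at least 1 log2 odds (centred) or 2-fold in both column sets. In 10 simulated data sets with 200 of 6497 shares changed, the fit recovered 0% of changes of 1 log2 odds, 58.1% of 2 and 88.6% of 3. With 200 of 11765 levels changed it recovered 0%, 15.9% and 53.5% for log2 changes of the same sizes. False calls per data set were 0, 6.7 and 8 for shares and 0.1, 1.7 and 4.4 for levels. The simulated columns varied independently, while real columns of the same suffix deviated together, so these rates may not hold for the real columns.

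Named genes were 15 symbols fixed by name, the 12 highest and 12 lowest per measure by the smaller of the x and y changes, the leading members of each list, members past the limit, and genes past both limits; others are marked as chosen after their values were seen. For shares, the 12 and 12 also needed both interkinesis columns beyond both stage VI columns. Names without a symbol were counted only. Members and lists were chosen with earlier results of these data known. Columns of the same suffix deviated together (r of 0.173 to 0.451 over 10 stage pairs for shares and 0.655 to 0.738 for levels), and fits with the column set as a block, other scalings, other limits and single columns left out were run as alternatives. Symbols were looked up in RefSeq (3387 of 6497 and 9702 of 11765 names matched). No gene sequence was used here.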

Additional observations from a re-analysis of the deposited data

How the results depend on the processing

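The count of called genes was 0 under each alternative that kept all columns, for shares and for levels, while genes with an unadjusted p below 0.05 ran from 814 to 1702 for shares and from 12 to 3106 for levels. Leaving out single columns gave 0 to 3 called genes for shares and 0 for levels. With the column set as a replicate block, a paired fit by suffix, 0 genes were called for shares and 0 for levels, so no call changed; the suffixes are not matched to the libraries' replicate numbers. Counts of genes past a limit moved with the limit. For 0.5 and 1.5 log2 odds in place of 1, the centred counts were 797 and 93 higher and 378 and 4 lower, and the uncentred ones 473 and 42 higher and 1111 and 12 lower. For 1.5-fold and 3-fold in place of 2-fold, levels were higher for 505 and 25 names and lower for 831 and 22, and 92 of the lower names had a mean level above the median. The cause was not tested. Some named genes changed sign. With centred columns and with quantile normalization, share changes were 0.16 and 0.30 for ccna1.L, 0.16 and 0.13 for ccna2.L, and 0.16 and 0.42 for fbxo5.S, all lower as deposited. With single columns left out, share changes (log2 odds) ran over -0.51 to 0.20 (ccna1.L), -0.32 to 1.02 (ccna1.S), -0.41 to 0.091 (ccna2.L), -0.23 to 1.04 (aurka.L), -0.33 to 0.84 (aurka.S), -0.19 to 1.95 (fbxo43-like.L), -0.46 to 0.15 (fbxo5.S) and -0.047 to 1.31 (btg4.L). Level changes (log2) ran over -0.77 to 5.42 (tRNA-Gln), -1.02 to 5.59 (ND3), -0.68 to 7.84 (tRNA-Ile), -1.48 to 0.26 (ccnb1.2.S), -2.10 to 0.28 (ccnb1.L), -1.95 to 0.52 (ccna1.S), -1.89 to 0.43 (wee2.S), -0.25 to 0.58 (aurka.L), -1.29 to 0.11 (fbxo5.L), -0.66 to 0.48 (fbxo5.S), -1.23 to 0.25 (cdc20.S), -0.20 to 0.48 (plk1.S), -0.22 to 0.30 (cpeb1.S), -0.52 to 0.46 (cpeb4.S), -0.93 to 0.46 (h1foo.L) and -0.66 to 0.73 (h1foo.S). In those fits a stage kept only its x or y column, while x and y differed from gene to gene even after centring. A lone column was taken to vary like the other stages. Of 517 alternative values of named genes 477 kept their direction, and of 253 alternative values of gene lists 108 moved by less than the SD of the x and y medians and 145 by more. Leave-one-out could not be applied to counts that need both column sets. Protein lengths were not analysed here.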
